A study of Homo sapiens with 12 samples.

Results

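Fatty acid oxidation genes and targets of the lipid-sensing receptor PPARA were examined in HepaRG, a human hepatoma cell line that matures into a mix of cells resembling hepatocytes and bile duct cells. The set was 29 genes, chosen by name, and all 29 had a row among the 15822 loci of the deposited expression table. RNA was sequenced from cells in which the gene NR1I3, which encodes the constitutive androstane receptor (CAR), was knocked out, here called KO, and from wild-type (WT) cells. Cells of each genotype were given phenobarbital (PB, a barbiturate that activates CAR indirectly), CITCO (a synthetic CAR agonist) or the solvent DMSO. Each of the 6 groups (KO with PB, KO with CITCO, KO with DMSO, and the same for WT) held 2 libraries. Doses, exposure times, the edited position in NR1I3 and whether the KO line is 1 clone were not stated in the labels. Nothing there ties the 2 libraries of a group to different cultures, and the p-values below therefore reflect only the spread between libraries, which may be technical.

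Long-chain fatty acids are joined to coenzyme A, carried into mitochondria as carnitine esters and shortened there by rounds of β-oxidation, whose electrons pass through the electron transfer flavoprotein to the respiratory chain. Peroxisomes shorten very long and branched chains, and cytochromes of the CYP4A family hydroxylate fatty acids at the terminal (omega) carbon. In hepatocytes PPARA, a nuclear receptor that binds fatty acids and pairs with RXR, turns on many genes of these routes during fasting.

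The libraries held 49258123 to 66453415 reads, and the 29 genes took 0.698 to 0.727% of the signal. Values are in CPM (read counts scaled to library size, with the authors' normalization factors), and differences are on the log2(CPM + 0.5) scale. A gene is said to have risen or fallen where limma gave a Benjamini-Hochberg adjusted p under 0.05 over the 15792 loci tested; all 29 genes were among them, and the lowest value of any of them was 1.16 CPM, or 71 reads. NR1I3 transcript was present in both genotypes, at 11 and 10.6 CPM in KO cells and 11.5 and 12 CPM in WT cells with DMSO (difference -0.12, SE 0.09, limma adjusted p = 0.273). Its level therefore does not check the KO label. Hepatocyte markers, of which 9 of 10 had a row, summed to 57030 to 68130 CPM in the KO libraries and 138800 to 159500 CPM in the WT libraries; the sum is mostly ALB (43520 CPM in KO and 127600 CPM in WT with DMSO), and with DMSO 7 of the 9 were lower and 1, CYP3A4 (1090 CPM in KO and 236.8 CPM in WT), was higher. Biliary and progenitor markers (4 of 8 with a row) summed to 103.7 to 121 CPM in KO and 377.2 to 467.4 CPM in WT libraries. That sum is mostly KRT19 (83.95 CPM in KO and 407.3 CPM in WT with DMSO), and 2 of the 4 were lower and 2 higher in KO, among the higher SPP1 (29.25 CPM in KO and 11.88 CPM in WT). Mesenchymal markers (5 of 8) summed to 137.8 to 147.5 CPM in KO and 97.0 to 111 CPM in WT libraries. The largest was ACTA2 (76.04 CPM in KO and 44.1 CPM in WT with DMSO), and 2 of the 5 were higher and 1 lower in KO. COL3A1 averaged 25.69 CPM in KO and 34.28 CPM in WT with DMSO. Adipocyte markers (3 of 5) summed to 72.1 to 91.7 CPM in KO and 174 to 201 CPM in WT libraries. That sum is mostly CIDEC (77.51 CPM in KO and 174.4 CPM in WT with DMSO), and 2 of the 3 were lower and 0 higher in KO. No marker with a row was at 0 in any group.

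Promoter sequences of RefSeq (GRCh38.p14; 250 bases before to 50 after a transcription start) were at hand for 21 of the 29 genes, in 30 windows. PPARA with RXR binds direct repeats of AGGTCA spaced by 1 base. The full repeat (AGGTCA, any base N, AGGTCA), searched on both strands, was in 0 of these 30 windows and in 8 of all 35116 windows (0.0228%). A single AGGTCA was in 2 of the 30 windows, those of CREB3L3 and FABP1, and in 4857 of all windows (13.8%); every match to the repeat also holds a single AGGTCA. With the repeat in only 0.0228% of all windows, 0 of 30 does not set these windows apart. Only exact letters were searched, so a window without a match may still hold an inexact repeat. These are matches of letters and not shown binding sites. Both windows are printed 5′ to 3′ because they are the only ones of the set with a match, and the AGGTCA letters, or TGACCT where the match is on the opposite strand, are in capitals. The CREB3L3 stretch is chr19:4153381-4153630 (plus strand) and ends at the base before the start. The FABP1 stretch is chr2:88128033-88128312 (minus strand) and includes the first 30 transcribed bases.
CREB3L3: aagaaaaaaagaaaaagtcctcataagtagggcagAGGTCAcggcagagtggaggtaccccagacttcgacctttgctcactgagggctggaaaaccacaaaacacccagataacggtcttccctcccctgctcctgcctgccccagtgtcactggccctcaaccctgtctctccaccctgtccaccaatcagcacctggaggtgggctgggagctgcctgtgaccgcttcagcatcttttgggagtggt
FABP1: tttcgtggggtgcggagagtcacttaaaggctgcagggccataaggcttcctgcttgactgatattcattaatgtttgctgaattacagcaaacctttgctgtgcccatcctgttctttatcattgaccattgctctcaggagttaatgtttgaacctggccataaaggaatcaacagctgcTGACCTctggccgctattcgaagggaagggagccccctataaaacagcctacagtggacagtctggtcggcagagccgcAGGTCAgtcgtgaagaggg

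HADHA and HADHB encode the α and β subunits of the mitochondrial trifunctional protein, and their starts lie 307 bases apart on opposite strands of chromosome 2. Their promoter windows overlap by 194 bases, which are in capitals in the 250 bases before the HADHB start (chr2:26244689-26244938, plus strand), shown because both genes were lower in KO cells. In the GENCODE annotation (GRCh38) the longest forms of the genes also overlap, at 26190635 to 26244726 (HADHA) and 26243170 to 26290468 (HADHB). Strandedness of the libraries is not given, so reads from the overlap cannot be told apart.
HADHB: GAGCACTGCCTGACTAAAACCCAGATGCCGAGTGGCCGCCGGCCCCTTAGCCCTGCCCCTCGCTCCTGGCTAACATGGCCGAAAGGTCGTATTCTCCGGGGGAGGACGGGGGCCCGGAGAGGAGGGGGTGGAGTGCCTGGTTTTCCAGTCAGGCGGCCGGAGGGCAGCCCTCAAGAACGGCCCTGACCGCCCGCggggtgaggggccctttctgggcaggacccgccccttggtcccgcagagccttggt

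KO and WT cells were compared under each treatment to ask how the oxidation genes stand in cells carrying the NR1I3 knockout. With DMSO, 22 of the 29 genes were lower and 5 higher in KO cells, against a background of 57.7% of all loci called (29.4% lower and 28.3% higher). With PB, 23 were lower and 5 higher (background 58.3%, 28.9% lower and 29.4% higher), and with CITCO 21 were lower and 5 higher (background 59%, 29.8% lower and 29.3% higher). Under all 3 treatments, 21 genes were lower and the same 5, CYP4A11, CYP4A22, ACSL1, ANGPTL4 and PLIN2, were higher, while ETFDH, FABP1 and SLC25A20 missed the threshold in at least 1 treatment. The share of all loci called in the same direction under all 3 treatments was not computed. The median difference of the 29 genes was -0.40 (DMSO), -0.48 (PB) and -0.45 (CITCO), beside medians of all loci within 0.01 of 0. These differences depend on how libraries are scaled: with every library brought to the same total, the median of all loci moved by 0.25 (DMSO) or 0.24 (PB and CITCO), and the counts became 15 lower and 9 higher with DMSO and 18 lower and 7 higher with each drug, while the share of all loci called rose to 67.1% (DMSO), 66.7% (PB) and 67.1% (CITCO). That share was not split by direction. With equal totals the median of all loci lay above 0, at 0.247 (DMSO), 0.239 (PB) and 0.234 (CITCO). The gap between the median of the 29 genes and that of all loci was -0.40 as deposited and -0.39 with equal totals (DMSO). In bulk RNA, fewer cells of a type and less RNA per cell cannot be told apart; the hepatocyte marker sums above were lower in the same KO libraries, and their part in these differences was not tested.

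PPARA itself had 71.6 and 71.3 CPM (PB), 58.5 and 54.2 CPM (CITCO) and 62.0 and 61.2 CPM (DMSO) in KO cells, against 84.95 and 85.98 CPM (PB), 67.5 and 68.5 CPM (CITCO) and 69.7 and 65.6 CPM (DMSO) in WT cells. The genotypes did not overlap under any treatment, and the KO minus WT difference was -0.13 with DMSO (SE 0.05, limma adjusted p = 0.0333), -0.26 with PB and -0.27 with CITCO. With equal totals the DMSO difference was 0.13 (limma adjusted p = 0.0306), so its direction rests on the scaling, and the PB and CITCO differences were -0.01 and -0.02 and not called. The DMSO call was also lost without KO DMSO replicate 1, KO DMSO replicate 2 or WT DMSO replicate 1 (limma adjusted p = 0.0767, 0.118 and 0.221).

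CREB3L3, a liver and gut transcription factor released from the endoplasmic reticulum membrane during fasting, had 117.5 and 118.1 CPM (PB), 75.6 and 71.2 CPM (CITCO) and 72.6 and 63.9 CPM (DMSO) in KO cells. WT cells had 132.6 and 138.2 CPM (PB), 119.7 and 118.5 CPM (CITCO) and 111.7 and 111.3 CPM (DMSO). It was lower in KO cells by 0.71 with DMSO (SE 0.06, limma adjusted p = 3.18e-09) and by 0.70 with CITCO. With PB the gap was 0.20 (limma adjusted p = 0.00439), and with equal totals this difference was 0.05 in the opposite direction and not called.

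Of the genes for entry into mitochondria, CPT1A and CPT2, the carnitine palmitoyltransferases of the outer and inner membrane, were lower in KO cells. CPT1A, the controlled step of entry, had 112 and 107 CPM (PB), 104 and 107 CPM (CITCO) and 117 and 112 CPM (DMSO) in KO cells, against 168 and 170 CPM (PB), 187 and 189.7 CPM (CITCO) and 172 and 173 CPM (DMSO) in WT cells. All 6 KO libraries lay below all 6 WT libraries, with differences of -0.59 with DMSO (SE 0.04, limma adjusted p = 9.91e-10), -0.62 with PB and -0.83 with CITCO. CPT2 had 35.22 and 36.19 CPM (PB), 44.52 and 40.37 CPM (CITCO) and 39.54 and 40.19 CPM (DMSO) in KO cells, against 50.81 and 51.98 CPM (PB), 58.57 and 59.9 CPM (CITCO) and 57.64 and 57.38 CPM (DMSO) in WT cells. Here too all KO libraries were the lower, with a difference of -0.52 with DMSO (limma adjusted p = 3.08e-07). ACSL1, which activates long-chain fatty acids, was the one entry gene higher in KO cells, by 0.22 with DMSO (1531 to 1570 CPM in KO, 1300 to 1368 CPM in WT). SLC25A20, the carnitine carrier between CPT1A and CPT2, did not pass under any treatment as deposited (-0.02 with DMSO, 95% interval -0.19 to 0.14), and was higher under equal totals with DMSO (0.24, limma adjusted p = 0.0124) and PB (0.27, limma adjusted p = 0.00614). The liver fatty acid-binding protein gene FABP1 was lower by 0.33 with DMSO and by 0.10 with PB, and its difference of -0.09 with CITCO missed the threshold (limma adjusted p = 0.0713); with equal totals the DMSO call was lost (-0.06, limma adjusted p = 0.192) and FABP1 was higher by 0.15 with PB and by 0.16 with CITCO (limma adjusted p = 0.00477 and 0.00281). Its PB call as deposited (limma adjusted p = 0.0471) was lost without KO PB replicate 1 (0.352) or WT PB replicate 1 (0.180).

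All 10 mitochondrial β-oxidation enzymes were lower in KO cells under all 3 treatments as deposited, with a median difference of -0.46 with DMSO. Of all loci, 29.4% (DMSO), 28.9% (PB) and 29.8% (CITCO) were called lower as deposited. With equal totals 6 of the 10 were lower and 1, ACADVL, was higher with DMSO, 9 were lower with PB and 8 with CITCO. The share of all loci called lower with equal totals was not computed. The largest difference was at ACADS, the short-chain acyl-CoA dehydrogenase (chr12:120725735-120740008). It had 1.92 and 1.82 CPM (PB), 1.16 and 1.75 CPM (CITCO) and 1.64 and 1.44 CPM (DMSO) in KO cells, against 9.94 and 11.95 CPM (PB), 14.1 and 12.1 CPM (CITCO) and 10.9 and 11.4 CPM (DMSO) in WT cells. That is 5.72-fold lower in KO cells with DMSO on the log2(CPM + 0.5) scale (difference -2.52, SE 0.15, limma adjusted p = 6.92e-11), with no overlap of the genotypes under any treatment. The medium-chain and very-long-chain dehydrogenases moved less.

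ACADM, the medium-chain enzyme, had 211 and 202.8 CPM (PB), 197.4 and 198.1 CPM (CITCO) and 193.5 and 199.6 CPM (DMSO) in KO cells, against 315.3 and 278.9 CPM (PB), 273.8 and 276.2 CPM (CITCO) and 297.2 and 272.1 CPM (DMSO) in WT cells. All KO libraries were below all WT libraries, and the difference with DMSO was -0.53 (limma adjusted p = 7.65e-08). ACADVL, the very-long-chain enzyme, was lower by 0.13 with DMSO as deposited (limma adjusted p = 0.00964) and higher by 0.13 with equal totals (limma adjusted p = 0.00823); without WT DMSO replicate 2 the call as deposited was lost (0.0968). 

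The trifunctional protein genes were both lower. HADHA had 344.7 and 324.5 CPM (PB), 372.4 and 370.5 CPM (CITCO) and 361.9 and 359 CPM (DMSO) in KO cells, against 505.4 and 499 CPM (PB), 506.7 and 510 CPM (CITCO) and 518.4 and 503.2 CPM (DMSO) in WT cells. HADHB had 191.6 and 191.8 CPM (PB), 209.8 and 223 CPM (CITCO) and 222.8 and 220.7 CPM (DMSO) in KO cells, against 334.6 and 330.4 CPM (PB), 351.2 and 348.1 CPM (CITCO) and 359 and 348.2 CPM (DMSO) in WT cells. For neither gene did a KO library reach the lowest WT library. With DMSO the differences were -0.50 for HADHA and -0.67 for HADHB (limma adjusted p = 1.03e-09 and 3.79e-11), and both stayed called with equal totals. ACAA2, the thiolase of the matrix, had 495.2 and 498.8 CPM (PB), 542.9 and 542.2 CPM (CITCO) and 584.1 and 577.3 CPM (DMSO) in KO cells, against 725.4 and 696 CPM (PB), 725.2 and 722.5 CPM (CITCO) and 787.2 and 768.4 CPM (DMSO) in WT cells. Within each genotype its PB libraries lay below the DMSO libraries, and the KO minus WT difference was -0.42 with DMSO and -0.52 with PB.

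ECI1 and ECI2 are isomerases that prepare unsaturated chains. ECI2 had 118.9 and 123.2 CPM (PB), 112.4 and 109.2 CPM (CITCO) and 113.8 and 106.2 CPM (DMSO) in KO cells, against 183.1 and 170 CPM (PB), 153 and 155.8 CPM (CITCO) and 160.3 and 158.4 CPM (DMSO) in WT cells. ECI1 had 29.17 and 28.36 CPM (PB), 27.29 and 25.58 CPM (CITCO) and 30.21 and 33.06 CPM (DMSO) in KO cells, against 38.3 and 42.44 CPM (PB), 44.38 and 41.54 CPM (CITCO) and 35.71 and 38.67 CPM (DMSO) in WT cells. The genotypes did not overlap for either gene, with differences of -0.53 for ECI2 and -0.23 for ECI1 with DMSO and of -0.69 for ECI1 with CITCO. ECI1's DMSO call was lost without KO DMSO replicate 1 (limma adjusted p = 0.120) or WT DMSO replicate 2 (0.0884) and with equal totals. HADH, the short-chain hydroxyacyl-CoA dehydrogenase, differed by -0.31 and DECR1, the dienoyl-CoA reductase, by -0.25 with DMSO, and neither was called with equal totals.

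The electron transfer flavoprotein is a pair of subunits, ETFA and ETFB, and ETFDH passes its electrons to ubiquinone. ETFA had 167.2 and 171 CPM (PB), 166.5 and 171.4 CPM (CITCO) and 182.1 and 169.2 CPM (DMSO) in KO cells, against 258.4 and 236.6 CPM (PB), 243 and 241.7 CPM (CITCO) and 257.5 and 241.3 CPM (DMSO) in WT cells. ETFB had 127.2 and 128.1 CPM (PB), 120.9 and 112.7 CPM (CITCO) and 118.8 and 120.8 CPM (DMSO) in KO cells, against 165.6 and 190.4 CPM (PB), 184.6 and 185.4 CPM (CITCO) and 143.5 and 168.4 CPM (DMSO) in WT cells. WT DMSO replicate 1 was the lowest WT library for ETFB and still above every KO library. With DMSO the difference was -0.51 for ETFA (limma adjusted p = 6.47e-08) and -0.37 for ETFB (limma adjusted p = 1e-04), the ETFB call being lost with equal totals (0.165). Both subunits were lower in KO cells under all 3 treatments as deposited. ETFDH was within 0.01 of 0 with DMSO (95% interval -0.11 to 0.12) and was called only with PB (-0.15, limma adjusted p = 0.0249), a call lost without KO PB replicate 1 (0.161) or WT PB replicate 1 (0.250). With equal totals ETFDH was higher with DMSO (0.27, limma adjusted p = 0.000277) and CITCO (0.17, limma adjusted p = 0.00938), and its PB difference was 0.10 and not called (0.116).

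The 3 peroxisomal enzymes were lower in KO cells under all 3 treatments and under both scalings. As deposited, 28.9 to 29.8% of all loci were lower in each treatment. EHHADH, the peroxisomal bifunctional enzyme and a classical PPARA target (chr3:185190624-185281990), had 160 and 163.6 CPM (PB), 156.8 and 155.3 CPM (CITCO) and 159.8 and 161.7 CPM (DMSO) in KO cells, against 440.5 and 419.6 CPM (PB), 368.8 and 366.7 CPM (CITCO) and 399.2 and 376.5 CPM (DMSO) in WT cells. It was 2.41-fold lower in KO cells with DMSO (difference -1.27, SE 0.04, limma adjusted p = 8.18e-15) and 2.65-fold lower with PB. ACAA1, the peroxisomal thiolase, had 204.7 and 205.2 CPM (PB), 178.2 and 177.4 CPM (CITCO) and 189.7 and 180.4 CPM (DMSO) in KO cells, against 399.5 and 417.2 CPM (PB), 361.8 and 340.9 CPM (CITCO) and 347.5 and 354.5 CPM (DMSO) in WT cells. The highest KO library was far below the lowest WT library, and the difference with DMSO was -0.92 (limma adjusted p = 1.07e-12). ECH1, which handles unsaturated chains in peroxisomes and mitochondria, differed by -0.40 (limma adjusted p = 5.15e-08).

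The omega-hydroxylases went the other way. CYP4A11 (chr1:46929177-46941484) had 120.8 and 119.6 CPM (PB), 178.6 and 178 CPM (CITCO) and 183.2 and 163.4 CPM (DMSO) in KO cells, against 74.7 and 72.3 CPM (PB), 109 and 116 CPM (CITCO) and 118.5 and 121.1 CPM (DMSO) in WT cells. It was higher in KO cells by 0.53 with DMSO (SE 0.05, limma adjusted p = 7.06e-08), 0.71 with PB and 0.66 with CITCO. Its neighbour CYP4A22 (chr1:47137435-47149741) had 41.0 and 41.2 CPM (PB), 67.6 and 61.9 CPM (CITCO) and 62.6 and 59.8 CPM (DMSO) in KO cells, against 32.2 and 34.3 CPM (PB), 50.3 and 53.7 CPM (CITCO) and 52.1 and 52.3 CPM (DMSO) in WT cells. The difference was 0.23 with DMSO (SE 0.06, limma adjusted p = 0.00313). The 2 transcripts share 38.6% of the 50-base stretches of CYP4A11 and 38.5% of those of CYP4A22 exactly, so the authors' counting may have split reads between them and their separate values are uncertain.

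PDK4, PLIN2 and ANGPTL4, all widely used as PPARA target genes, differed between genotypes in opposite directions. PDK4, the kinase that restrains pyruvate oxidation (chr7:95583499-95596491), had 31.2 and 27.5 CPM (PB), 29.7 and 33.3 CPM (CITCO) and 29.5 and 30.4 CPM (DMSO) in KO cells, against 130.9 and 121.7 CPM (PB), 101.4 and 101.3 CPM (CITCO) and 107 and 103 CPM (DMSO) in WT cells. It was 3.46-fold lower in KO cells with DMSO (difference -1.79, SE 0.07, limma adjusted p = 8.94e-14) and 4.25-fold lower with PB.

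PLIN2, the coat protein of lipid droplets (chr9:19108375-19149290), had 554 and 554.1 CPM (PB), 443.7 and 450.4 CPM (CITCO) and 548.2 and 520.9 CPM (DMSO) in KO cells, against 183 and 185.5 CPM (PB), 191.2 and 188.2 CPM (CITCO) and 223.1 and 212.4 CPM (DMSO) in WT cells. It was 2.45-fold higher in KO cells with DMSO (difference 1.29, SE 0.04, limma adjusted p = 3.48e-15). ANGPTL4, a secreted inhibitor of lipoprotein lipase (chr19:8363289-8374373), had 53.9 and 52.7 CPM (PB), 41.4 and 41.6 CPM (CITCO) and 50.5 and 52.1 CPM (DMSO) in KO cells, against 18.3 and 20.2 CPM (PB), 23.8 and 23.3 CPM (CITCO) and 24.5 and 26.3 CPM (DMSO) in WT cells. Its difference with DMSO was 1.00 (SE 0.06, limma adjusted p = 2.4e-10), and for both genes every KO library lay above every WT library. VNN1, a pantetheinase gene, had 55.01 and 53.21 CPM (PB), 50.8 and 51.64 CPM (CITCO) and 53.74 and 54.77 CPM (DMSO) in KO cells, against 78.02 and 78.36 CPM (PB), 70.84 and 69.67 CPM (CITCO) and 73.01 and 72.14 CPM (DMSO) in WT cells. It was the lower in every KO library, by 0.42 with DMSO (limma adjusted p = 6.14e-07). PDK4, PLIN2, ANGPTL4 and VNN1 kept these directions and calls with equal totals under DMSO.

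**Figure D1:**
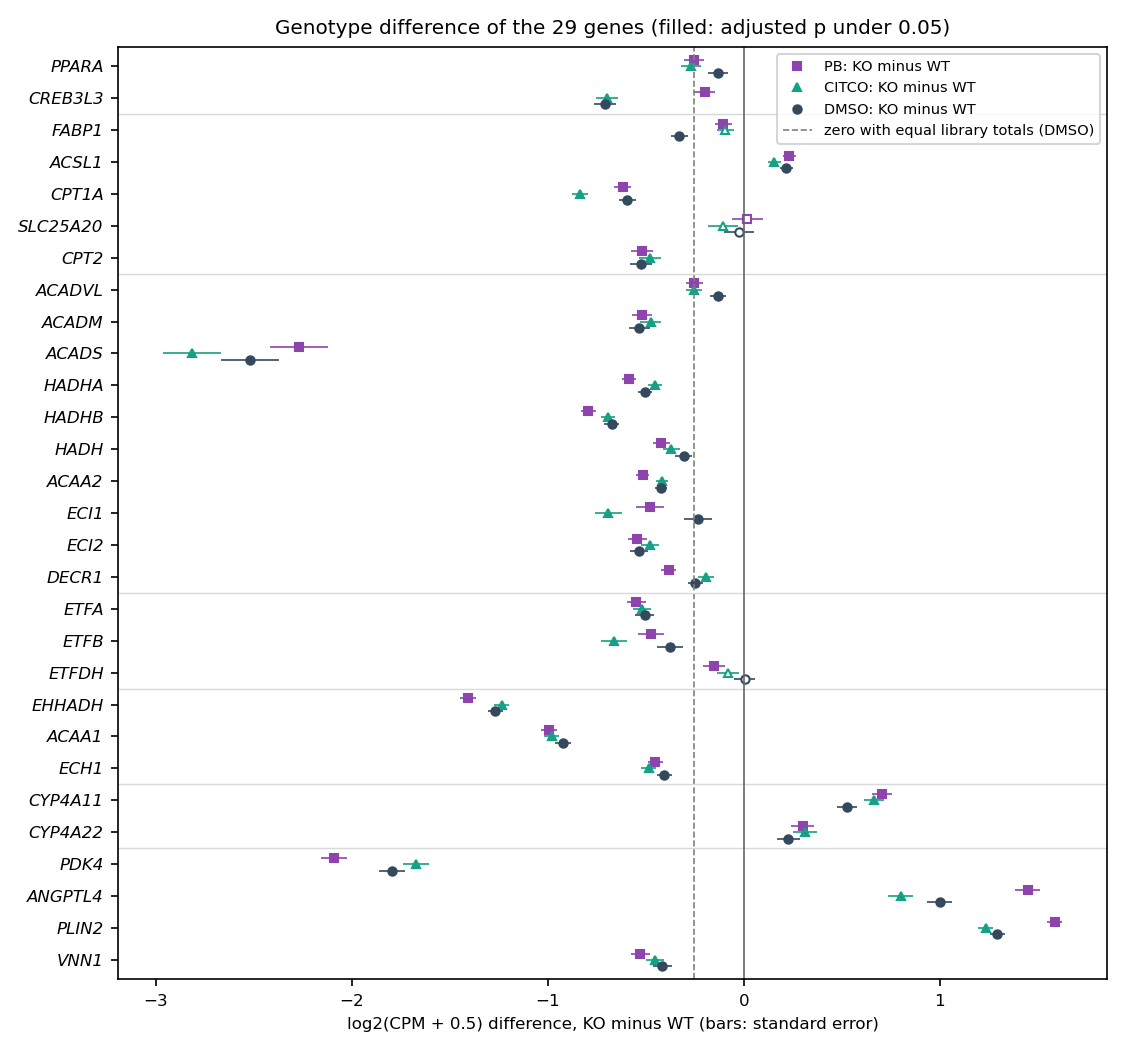
Difference between KO and WT cells (log2(CPM + 0.5), x axis) of each of the 29 genes (rows, grouped by role) with PB (squares), CITCO (triangles) and DMSO (circles); bars are standard errors from limma, filled symbols have an adjusted p under 0.05, and the dashed line marks where 0 would lie with equal library totals under DMSO. ACADS, PDK4 and EHHADH lie farthest to the left and PLIN2 and ANGPTL4 farthest to the right, while PPARA and ACADVL lie between 0 and about the dashed line.

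PB was compared with DMSO within each genotype to ask which of these genes respond to it in KO and in WT cells. In KO cells, 4 genes rose and 4 fell, against a background of 6.96% of all loci called (3.87% higher and 3.09% lower). In WT cells, 6 rose and 5 fell, against a background of 6.42% (2.66% higher and 3.76% lower). Of these, 6 were called in the same direction in both genotypes: PPARA, CREB3L3 and ACAA1 rose and CYP4A11, CYP4A22 and ACAA2 fell, which is 6 of the 8 calls in KO cells and 6 of the 11 in WT cells. The share of all loci called in the same direction in both genotypes was not computed, so this overlap has no background here. The median response of the 29 genes was 0.001 in KO cells and 0.054 in WT cells, beside medians of all loci of 0.001 in KO cells and -0.005 in WT cells. The hepatocyte marker sum was 66930 to 68130 CPM with PB and 57030 to 58870 CPM with DMSO in KO cells, and 152300 to 159500 CPM with PB and 150600 to 155400 CPM with DMSO in WT cells. The CYP3A4 gene, a PB target in that list, averaged 10670 CPM with PB and 1090 CPM with DMSO in KO cells. In WT cells it averaged 3928 CPM with PB and 236.8 CPM with DMSO. ALB, the largest part of the sum, averaged 41310 CPM with PB and 43520 CPM with DMSO in KO cells. SERPINA1 averaged 9936 CPM with PB and 8247 CPM with DMSO there. The part of these markers in the PB responses was not tested.

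The largest falls were of the omega-hydroxylases. In the libraries listed above, CYP4A11 was lower with PB than with DMSO by 0.52 in KO cells (SE 0.05, limma adjusted p = 1.47e-06) and by 0.70 in WT cells (SE 0.05, limma adjusted p = 3.27e-08). CYP4A22 was lower by 0.57 in KO cells (limma adjusted p = 3.43e-06) and by 0.64 in WT cells (limma adjusted p = 8.18e-07). PB and DMSO libraries did not overlap for either gene in either genotype, and all 4 calls held under every alternative run. The test of the difference between genotypes gave 0.18 for CYP4A11 (95% interval 0.03 to 0.33, limma adjusted p = 0.421) and 0.07 for CYP4A22 (95% interval -0.10 to 0.25, limma adjusted p = 0.864).

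Among the genes that rose, CREB3L3 gained 0.79 in KO cells (SE 0.06, limma adjusted p = 1.45e-08), a 1.72-fold difference, and 0.28 in WT cells (SE 0.06, limma adjusted p = 0.00339). PPARA rose by 0.21 in KO cells (limma adjusted p = 0.0145) and by 0.34 in WT cells (limma adjusted p = 0.000322), where both PB libraries lay above the other 4. The KO call of PPARA was lost when any 1 of the 4 libraries compared was left out: limma adjusted p = 0.110 to 0.117 without either KO PB library, 0.0708 without KO DMSO replicate 1 and 0.0992 without KO DMSO replicate 2. ACAA1 rose by 0.15 in KO cells and 0.22 in WT cells, but its KO call (limma adjusted p = 0.0329) was lost without KO PB replicate 1 (0.178), KO PB replicate 2 (0.193) or KO DMSO replicate 2 (0.257), and with equal totals (0.0954).

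The remaining PB calls were each made in 1 genotype only. FABP1 rose by 0.29 in KO cells (474.2 and 502.2 CPM with PB, 407.7 and 389.7 CPM with DMSO; limma adjusted p = 0.000207), and HADHB fell by 0.21 (limma adjusted p = 0.00137). ACAA2, called in both genotypes as given above, fell by 0.22 in KO cells and by 0.13 in WT cells. Its WT call was lost with edgeR (adjusted p = 0.0919) and DESeq2 (adjusted p = 0.148) on the WT reads. The WT call was also lost without WT DMSO replicate 1 (difference -0.11) or WT PB replicate 2 (-0.10). In WT cells HADH rose by 0.25 (131.5 and 126.6 CPM with PB, 108.9 and 108.5 CPM with DMSO; limma adjusted p = 0.00133). PDK4 rose by 0.26 and EHHADH by 0.15 in WT cells (limma adjusted p = 0.0198 and 0.0278); edgeR on the WT reads did not call EHHADH (0.0689), and both limma calls were lost without WT DMSO replicate 2 (0.0801 and 0.180) or WT PB replicate 1 (0.132 and 0.167). The WT values of ANGPTL4 and PLIN2 fell by 0.39 and 0.24 (limma adjusted p = 0.000657 and 0.000411). A call in 1 genotype only is not a test of a difference between genotypes, which is given next.

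**Figure D2:**
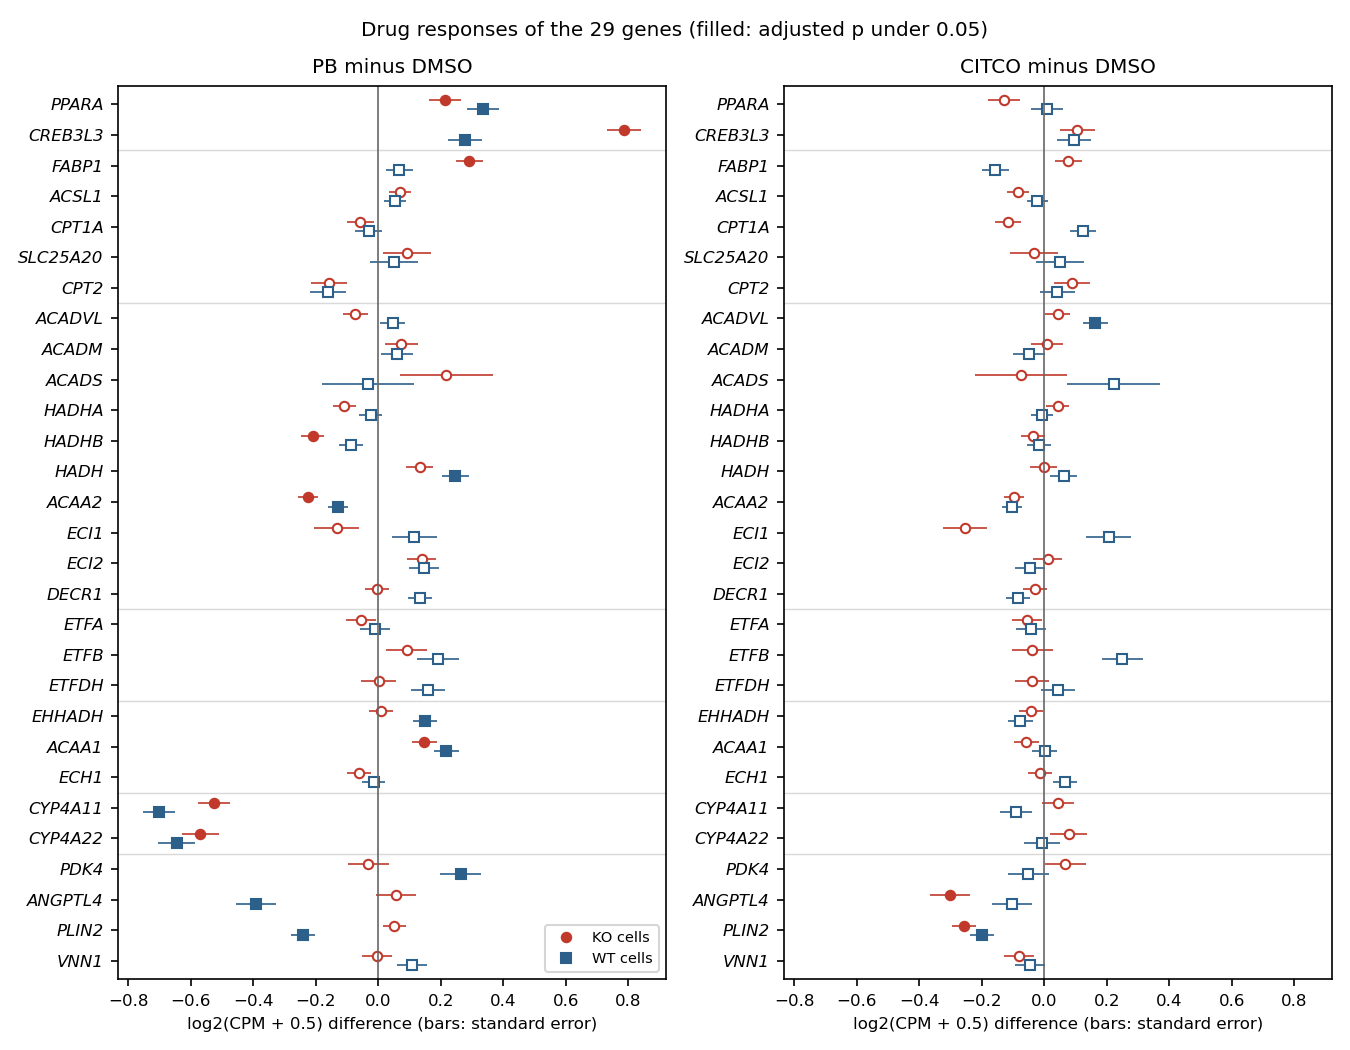
Responses of the 29 genes to PB (left) and CITCO (right), as the difference from DMSO on the log2(CPM + 0.5) scale (x axis), in KO cells (circles) and WT cells (squares); bars are standard errors from limma and filled symbols have an adjusted p under 0.05. CREB3L3 in KO cells stands out to the right after PB and the CYP4A genes of both genotypes to the left, while after CITCO no gene passes 0.31 in either direction.

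The PB response differed between genotypes at 3 of the 29 genes, all with a higher value in KO cells (background 1.01% of all loci, 0.798% higher and 0.209% lower). For CREB3L3 the PB response in KO cells minus that in WT cells was 0.51 (SE 0.08, limma adjusted p = 0.00177). In KO cells CREB3L3 with PB (117.5 and 118.1 CPM) was close to the WT CITCO libraries (119.7 and 118.5 CPM), and the KO DMSO libraries (72.6 and 63.9 CPM) were the lowest of the 12 together with KO CITCO. For PLIN2 the difference was 0.29 (SE 0.05, limma adjusted p = 0.00846): it fell in WT cells, and the KO response was 0.05 and not called. For ANGPTL4 it was 0.45 (SE 0.09, limma adjusted p = 0.0199), with a fall in WT cells and an uncalled 0.06 in KO cells. The CREB3L3 difference held without each library in turn. The PLIN2 call was lost without KO PB replicate 1 (limma adjusted p = 0.0694), KO PB replicate 2 (0.0589) or KO DMSO replicate 2 (0.0603), and the ANGPTL4 call without KO PB replicate 1 (0.135), KO PB replicate 2 (0.095), KO DMSO replicate 1 (0.0985), KO DMSO replicate 2 (0.0626) or WT PB replicate 1 (0.0614). With a constant prior variance none of the 3 was called.

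**Figure D3:**
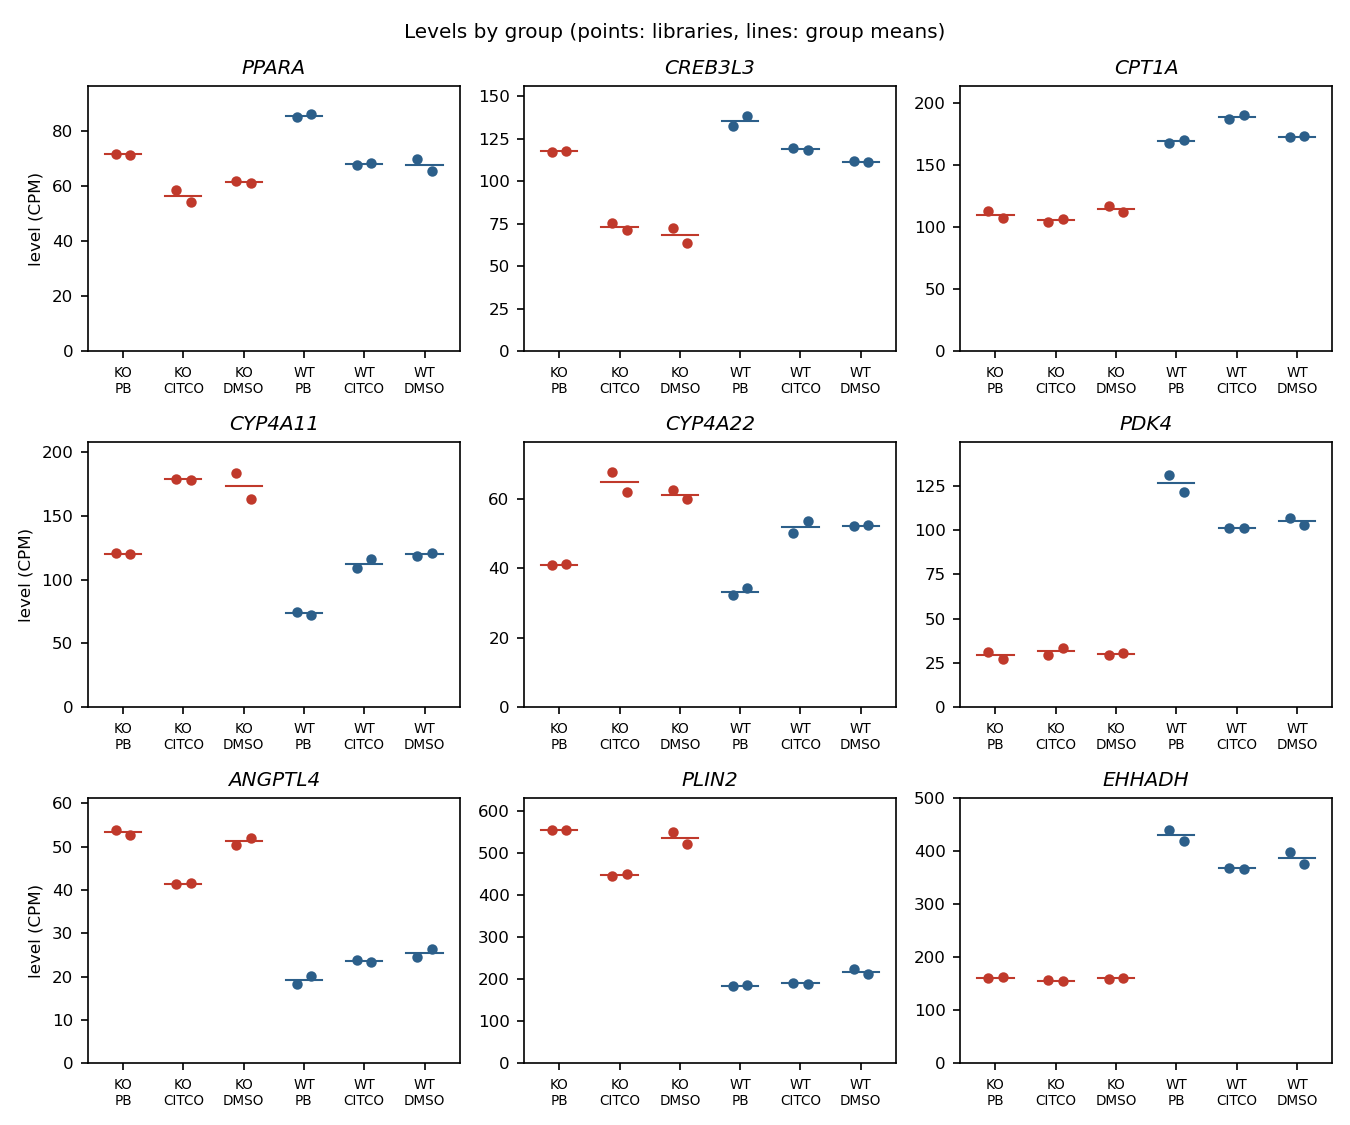
Levels (CPM, y axis from 0) of 9 genes in KO and WT cells with PB, CITCO and DMSO; points are libraries and lines are group means of 2 libraries. PDK4 and EHHADH are low in all KO groups, PLIN2 and ANGPTL4 are high in all KO groups, CYP4A11 and CYP4A22 are lowest with PB within each genotype, and CREB3L3 in KO cells is at 117.5 and 118.1 CPM with PB against 72.6 and 63.9 CPM with DMSO.

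CITCO gave few calls. In KO cells limma called 0 of the 29 genes higher (0 at an unadjusted p under 0.05) and 2 lower (7 unadjusted), against a background of 0.811% of all loci (0.386% higher and 0.424% lower). These fell: PLIN2 by 0.26 (443.7 and 450.4 CPM with CITCO, 548.2 and 520.9 CPM with DMSO; limma adjusted p = 0.00142) and ANGPTL4 by 0.30 (41.4 and 41.6 CPM with CITCO, 50.5 and 52.1 CPM with DMSO; limma adjusted p = 0.0305). The ANGPTL4 call was lost without any 1 of the 4 libraries compared (limma adjusted p = 0.174 to 0.255: 0.250 and 0.255 without KO CITCO replicates 1 and 2, 0.174 and 0.193 without KO DMSO replicates 1 and 2). In WT cells 1 gene rose and 1 fell (background 2.2%, 1.18% higher and 1.02% lower): ACADVL by 0.16 (637.2 and 619.7 CPM with CITCO, 546.5 and 575.2 CPM with DMSO; limma adjusted p = 0.0412) and PLIN2 by 0.20 (191.2 and 188.2 CPM with CITCO, 223.1 and 212.4 CPM with DMSO; limma adjusted p = 0.00676). Both WT calls were lost without WT CITCO replicate 1 (0.331 for ACADVL, 0.0658 for PLIN2), WT CITCO replicate 2 (0.157 and 0.105) or WT DMSO replicate 1 (0.311 and 0.0982). The share of all loci called was itself 0.69%, 0.861% and 1.06% without these libraries and 6.28% without WT DMSO replicate 2. The KO call of PLIN2 held without each library in turn and was lost with a constant prior variance (0.141). Limma called 0 of the 29 genes for a difference of the CITCO response between genotypes (background 0.336%, 0.108% higher and 0.228% lower), and 6 of them had an unadjusted p under 0.05. Without WT DMSO replicate 2, however, ECI1 (-0.52, limma adjusted p = 0.0164) and ETFB (-0.40, 0.0153) were called for that difference, and the share of all loci called was 3.11%; without any other library it was 0.146 to 0.291%.

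PB and CITCO were also set against each other within each genotype, with the libraries already used above; their doses and times are not given, so the treatments are compared as applied. In KO cells 7 genes were higher and 6 lower with PB than with CITCO (background 5.48%, 3.57% higher and 1.91% lower), and in WT cells 8 were higher and 5 lower (background 6.28%, 2.65% higher and 3.63% lower). PPARA, FABP1 and ACAA1 were higher with PB in both genotypes, PPARA by 0.34 in KO cells (limma adjusted p = 0.000279) and by 0.33 in WT cells (limma adjusted p = 0.000567). CYP4A11 was lower with PB by 0.57 in KO cells and 0.61 in WT cells, and CYP4A22 by 0.65 and 0.64. CREB3L3 was higher with PB by 0.68 in KO cells (limma adjusted p = 1.24e-07), and by 0.18 in WT cells, which missed the threshold (0.0544).

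ANGPTL4 was higher with PB than with CITCO in KO cells, by 0.36, and lower in WT cells, by 0.29. PLIN2 was higher by 0.31 in KO cells and ACSL1 by 0.15. The other calls in KO cells were lower values with PB of CPT2, HADHB, HADHA and ACAA2 (-0.25 to -0.13). The other WT calls were PDK4 (0.32), EHHADH, DECR1, ECI2 and HADH (0.18 to 0.23), with CPT2 and CPT1A lower (-0.20 and -0.16). Only 6 of the 13 calls in each genotype held when each library was left out in turn: CREB3L3, PPARA, PLIN2, ANGPTL4 and the CYP4A pair in KO cells, and PPARA, FABP1, EHHADH, DECR1 and the CYP4A pair in WT cells. In KO cells calls were lost without KO PB replicate 1 (5, limma adjusted p = 0.0504 to 0.207), KO PB replicate 2 (7, 0.0531 to 0.278), KO CITCO replicate 1 (4, 0.120 to 0.221) or KO CITCO replicate 2 (4, 0.102 to 0.183). In WT cells they were lost without WT PB replicate 1 (6, limma adjusted p = 0.0792 to 0.211), WT PB replicate 2 (2, CPT1A at 0.0529 and CPT2 at 0.0588), WT CITCO replicate 1 (6, 0.0722 to 0.179) or WT CITCO replicate 2 (7, 0.065 to 0.242).

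Other genes of these pathways were followed in 6 lists, whose counts stand against 57.7% of all loci called with DMSO (29.4% lower and 28.3% higher) and 67.1% with equal totals. The share with equal totals was not split by direction. With DMSO, the peroxisomal β-oxidation and carnitine shuttle list had 12 of 16 tested genes lower and 2 higher in KO cells (median -0.54). The peroxisomal enzyme catalase, CAT, was lower by 1.30 (172.9 CPM in KO, 427.2 CPM in WT), PEX11A, which drives peroxisome division, by 1.02 and ACOX2 by 0.92, and the transporter gene ABCD2 was higher by 0.87. Ketogenesis and ketolysis had 4 of 5 lower and 1 higher, the higher one being the monocarboxylate carrier gene SLC16A1, by 0.55. The other mitochondrial oxidation enzymes had 15 of 18 lower and 1 higher, with PCCA at -1.52, ACAD11 at -1.18 and MUT at -1.08. With equal totals these 3 lists had 11 lower and 3 higher, 4 lower and 1 higher, and 11 lower and 2 higher.

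Fatty acid uptake and activation was mixed, with 6 of 11 lower and 2 higher in KO cells with DMSO (3 lower and 4 higher with equal totals). The medium-chain acyl-CoA synthetase gene ACSM3 was lower by 2.11 (32.5 CPM in KO, 141.5 CPM in WT) and SLC27A5, which activates bile acids and fatty acids, by 0.73. ACSM2A and ACSL3 were higher by 0.85 and 0.60, ACSM2A being uncertain because of its near-identical copy ACSM2B. The other PPARA targets had 8 of 16 lower and 7 higher (6 and 8 with equal totals): the droplet proteins PLIN1 (-2.46, 1.09 CPM in KO and 8.28 CPM in WT) and CIDEC (-1.16) and the P450 gene CYP4F12 (-1.91) were lower, and APOA5 (1.27), a regulator of plasma triglyceride, and TXNIP (0.66) were higher. PLIN1 and CIDEC also count among the 3 adipocyte markers with a row. Of the receptors and coregulators, 8 of 15 were lower and 2 higher (5 and 8 with equal totals), a share called near that of all loci, with HNF4A at -0.87, PPARGC1B at -0.64 and RXRA, the partner of PPARA, at -0.50, and with PPARG higher by 1.04. The named genes kept their direction with equal totals, which move all differences by about the same 0.25.

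**Figure D4:**
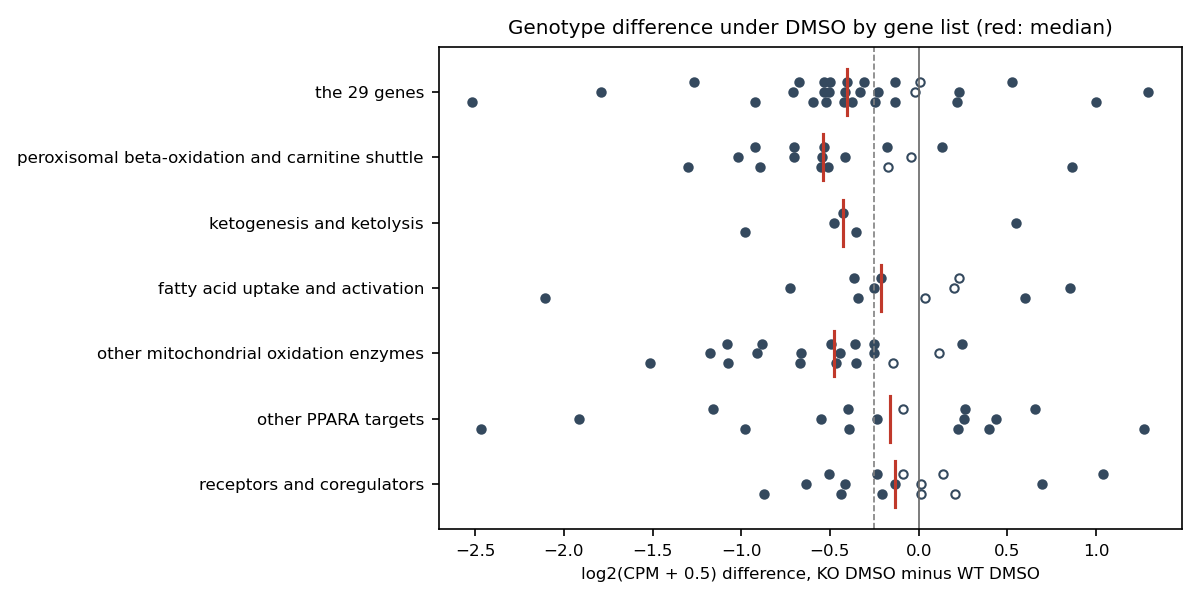
Difference between KO and WT cells with DMSO (log2(CPM + 0.5), x axis) of every tested gene of the 29-gene set and of the 6 other lists (rows); each point is a gene, filled where the adjusted p from limma is under 0.05, red ticks are list medians and the dashed line marks where 0 would lie with equal library totals. The medians of the 29 genes (-0.40), the peroxisomal list (-0.54) and the other mitochondrial enzymes (-0.48) lie left of the dashed line, and those of the other PPARA targets (-0.16) and the receptors (-0.13) lie right of it.

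After PB, 5 of 11 genes of the uptake and activation list rose in KO cells and 4 of 11 in WT cells and none fell, and of the other PPARA targets 3 of 16 rose and 4 fell in KO cells and 1 rose and 4 fell in WT cells, against the 6.96% (KO) and 6.42% (WT) of all loci called. SLC27A2, a very-long-chain acyl-CoA synthetase, had 41.1 and 42.0 CPM with PB and 18.4 and 20.4 CPM with DMSO in KO cells, and 44.1 and 45.2 CPM with PB and 24.2 and 25.2 CPM with DMSO in WT cells. It rose by 1.08 in KO cells (SE 0.07, limma adjusted p = 1.19e-08) and by 0.84 in WT cells (limma adjusted p = 4.7e-07). MLYCD, which degrades the CPT1A inhibitor malonyl-CoA, rose by 0.53 in each genotype (limma adjusted p = 2.87e-05 in KO and 3.4e-05 in WT). SLC27A5 rose by 0.74 in KO cells and by 0.31 in WT cells. In KO cells FABP4 rose by 0.54 and G0S2, an inhibitor of triglyceride lipase, fell by 0.53. Of the peroxisomal list SCP2, CAT, HACL1 and CROT rose in KO cells (0.18 to 0.44) and SCP2, CAT and HACL1 in WT cells (0.16 to 0.47). Of the receptors and coregulators limma called 0 of 15 in KO cells (5 at an unadjusted p under 0.05) and 1 in WT cells, FOXO1, which fell by 0.20; these peroxisomal genes and FOXO1 are named after their values were seen. After CITCO, limma called 0 of the 78 genes of the 6 lists in KO cells (13 at an unadjusted p under 0.05), against 0.811% of all loci. In WT cells 5 of the 78 were called, against 2.2% of all loci. Among them was SLC27A2, which rose by 0.49 (limma adjusted p = 0.000862).

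The authors' deposited tables of comparisons hold all 29 genes. In the authors' deposited table of KO against WT with DMSO, 25 of them have an FDR under 0.05, all 25 also called here, and in those for PB against DMSO 7 in KO and 9 in WT cells do, again all called here. Called here but not under an authors' FDR of 0.05 were PPARA (0.0861) and ACADVL (0.083) for KO against WT with DMSO. For PB these were ACAA1 (0.114) in KO cells and EHHADH (0.0947) and ACAA2 (0.0979) in WT cells. In the authors' tables for CITCO against DMSO, 2 genes in KO and 1 in WT cells have an FDR under 0.05, all called here. ACADVL, called here for CITCO in WT cells, has an authors' FDR of 0.142. The authors' deposited table whose name gives KO PB against WT PB holds instead the difference of the PB responses: over the 29 genes its log2 values differ from that difference by a median of 0.001 and from the named comparison by 0.502. Its 3 genes under an FDR of 0.05 are among the calls above. The authors' deposited table named for KO CITCO against WT CITCO likewise holds the difference of the CITCO responses, and there 1 gene, ECI1, is under an FDR of 0.05 (log2 value -0.47, FDR 0.0137), which limma did not call here (-0.46, adjusted p = 0.0674).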

How the data were processed

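RNA was isolated on columns and sequenced from standard Illumina libraries, per the labels, and neither strandedness nor the counting annotation is stated there. Per the submitters' processing notes, edgeR 2.12, Cuffdiff 2.1.1, Cufflinks 2.1.1, TopHat2 2.0.10 and Bowtie 1.0.0 were used, with the builds GRCh38 and GRCh37, whose roles are not given. The authors deposited 1 table of signal values for 12 libraries: per the file headers and the values, these are read counts per locus in CPM with normalization factors, so that library totals differ. For every column the step of 1 read was estimated here from the smallest values. In KO and WT columns alike, 100% of values were whole numbers of that step, within a tolerance of 0.01 read. The depths rest on the estimated step, and count models were run on the WT columns only. The authors also deposited tables of comparisons with log2 fold changes and p-values, which are quoted only where named.

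Differences were tested with limma 3.58.1 (R 4.3.3) on log2(CPM + 0.5) over the 15792 of 15822 loci that reached 1 CPM in 2 or more libraries, with all 12 libraries, 6 group means, 6 residual degrees of freedom and a prior variance that follows the mean. Two-sided p-values were adjusted over all loci in each of 11 comparisons, and a call needs an adjusted p under 0.05 with no minimum fold. The fit was also run on simulated data, with the same spread for every gene and changed genes in the KO PB group only. Those settings differ from these data, so the simulation does not check the calls above. Comparisons that use the same libraries are not independent, such as PB and CITCO each against one genotype's DMSO pair. Alternatives were other pseudocounts (0.1 and 1), no filter, a filter of 5 CPM, equal library totals, a constant prior variance, only the libraries compared, the replicate number as a block, each library left out, and edgeR 4.0.16 and DESeq2 1.42.0 on the recovered WT counts.

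Depth was 49258123 to 66453415 reads per library, and the duplicates of every group differed by more than counting noise. Values per library are given for 9 chosen genes and for those with a called difference of at least 0.5 in any comparison. From the other lists, genes are named that were called with a difference of at least 0.5 and a mean of at least 5 CPM, at most 3 per direction, list and comparison, apart from those said to be chosen later; some genes that meet this rule are not reported here. The 29 genes, the lists and the tests were chosen with earlier results of these data known.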

Additional observations from a re-analysis of the deposited data

Results flagged for a closer look

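At 4 genes the PB response differed between genotypes by the limma test of the difference itself. CREB3L3 responded more in KO cells (0.79) than in WT cells (0.28), a difference of 0.508 (limma adjusted p = 0.00177). For ANGPTL4 the response was 0.06 in KO cells and -0.39 in WT cells, a difference of 0.447 (limma adjusted p = 0.0199), and for PLIN2 it was 0.05 in KO cells and -0.24 in WT cells, a difference of 0.292 (limma adjusted p = 0.00846). As given above, the ANGPTL4 and PLIN2 calls were lost without some single libraries. With a constant prior variance none of CREB3L3, ANGPTL4 and PLIN2 was called. SLC27A5, a list gene named here after its values were seen, had 30.7 and 30.1 CPM with PB and 18.6 and 17.5 CPM with DMSO in KO cells, and 37.2 and 38.0 CPM with PB and 29.6 and 30.7 CPM with DMSO in WT cells, a difference of responses of 0.424 (limma adjusted p = 0.0307).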

How the results depend on the processing

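Of 4234 values of single genes under alternatives, 4042 stayed called in the same direction or stayed uncalled, 153 lost a call, 27 gained one in the same direction, and 12 changed direction with a call on at least 1 side. All 12 changed with every library scaled to the same total: in KO against WT with DMSO PPARA (0.13), ACADVL (0.133), ECI1 (0.031), DECR1 (0.018) and SLC25A20 (0.239); with PB CREB3L3 (0.051), FABP1 (0.147), ACADVL (0.001) and ETFDH (0.098); and with CITCO DECR1 (0.06), FABP1 (0.158) and ETFDH (0.171). With a constant prior variance the calls of the 29 genes were 5 for PB in KO cells, 6 for PB in WT cells, 0 for CITCO in either genotype, 0 for the difference of the PB responses, and 6 in KO and 4 in WT cells for PB against CITCO; over all loci those counts fell to 612 (1099), 537 (1014), 20 and 96 (128 and 348), 25 (159), and 452 and 434 (865 and 992), and that for the difference of the CITCO responses to 6 (53), with the counts as reported in parentheses. For CITCO in WT cells only the libraries compared and edgeR gave 0 calls and DESeq2 1, and for PB against CITCO in WT cells edgeR gave 8. Over all loci, fits of only the libraries compared called 254 (CITCO, KO), 387 (PB, WT), 159 (CITCO, WT), 84 (difference of the PB responses) and 1961 (PB against CITCO, KO), edgeR 554 (PB), 137 (CITCO) and 500 (PB against CITCO) in WT cells, and DESeq2 669, 206 and 632 for these. The cause was not tested.

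Leaving out 1 library gave 6 to 7 calls for PB in KO cells, 10 to 12 for PB in WT cells, 1 for CITCO in KO cells, 0 to 3 for CITCO in WT cells, 25 to 26, 26 to 28 and 26 to 27 for KO against WT with DMSO, PB and CITCO, 1 to 3 and 0 to 2 for the differences of the PB and CITCO responses, and 6 to 9 in KO and 6 to 13 in WT cells for PB against CITCO. Over all loci it gave 522 to 671 calls for PB in KO cells, 40 to 55 for CITCO in KO cells, 109 to 992 for CITCO in WT cells, 62 to 213 and 23 to 491 for the differences of the PB and CITCO responses, and 2.48 to 2.89% of loci in KO and 2.39 to 7.72% in WT cells for PB against CITCO; the highest counts for CITCO in WT cells and for both differences came without WT DMSO replicate 2. For KO against WT under each treatment, fewer of all loci were called whichever of the libraries compared was left out. For PB in WT cells the number over all loci went either way with the library left out. Same-numbered libraries did not deviate together in most pairs of groups (15 pairs, r from -0.0781 to 0.288, median 0.000299, 4 over 0.1). The numbers were therefore not taken as pairs. With the replicate block the counts were 27 for KO against WT with PB, 3 for CITCO in WT cells, 12 for PB against CITCO in WT cells and otherwise as reported. With 2 libraries a group, the number of libraries limits what could be called, and a missed threshold does not show that values were alike.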
